A study of Mus musculus with 21 samples.

Results

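The genes described here are splicing factors and heterogeneous nuclear ribonucleoproteins (hnRNPs) in CD4+ and CD8+ T cells of the mouse spleen. They were chosen by symbol, as every gene whose name begins with Srsf and a digit, Hnrnp, Snrp, Snrnp, Sf3a or Sf3b, and 58 of the 12994 genes in the deposited table fit that rule. The study sorted CD4+ (labelled LT4) and CD8+ (LT8) T cells from spleens of female C57BL6/J mice and counted RNA molecules by sequencing, to compare an enriched environment (EE) with standard housing (SE). Mice entered their housing at 4 weeks of age and stayed for 4 weeks. EE cages of 9120 cm2 held 12 to 15 mice with wheels, toys and nesting material, and SE cages of 666 cm2 held 5 to 6 mice without objects. The labels state that the animals analysed from each environment shared a cage, so an effect of the cage and an effect of the environment cannot be told apart. The 21 samples came from 12 animals, 9 of which gave both populations: 6 LT4 EE, 5 LT4 SE, 6 LT8 EE and 4 LT8 SE samples. Values are molecule counts divided by a size factor per sample, called normalized counts below, and differences are on the log2 scale after adding 1. Totals ran from 145546 to 183941 molecules in LT4 EE samples (median 164056.5), from 157556 to 190885 in LT4 SE (median 176086), from 179696 to 221454 in LT8 EE (median 191906.5) and from 179008 to 203322 in LT8 SE (median 194488).

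The population labels were checked against marker genes. Cd4 averaged 58.4 ± 12.0 (SD, n = 11) normalized counts in LT4 and 0.374 ± 0.484 (SD, n = 10) in LT8 samples, and Cd8a had 0.784 ± 1.06 (SD, n = 11) in LT4 and 98.4 ± 14.5 (SD, n = 10) in LT8 samples. All 10 genes of a T cell marker list were detected in each of the 4 groups. Of 10 B cell markers, 10 were detected in LT4 EE and LT4 SE samples, where their summed normalized count ran from 3.09 to 63.1 and Cd79a had the highest mean. In LT8 samples 6 of the 10 were detected in EE and 2 in SE, with sums of 0.931 to 20.6, and Cd79b had the highest mean. Erythroid markers, led by the haemoglobin gene Hba.a1, summed to 581 in LT8 EE replicate 6 and 1033 in LT8 SE replicate 3. They summed to at most 26.7 in the other 19 samples. The ranges over the alternatives between the populations, for housing in LT8 and for the interaction therefore include an analysis without those LT8 samples. That choice was made after seeing the data. For housing in LT8 it sets an end of the range for Hnrnpa3, Sf3b5 and Dhx38, among others. Between the populations its values are printed separately for Hnrnpll, Pcbp2, all splicing genes together, the SR proteins and the minor spliceosome proteins.

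Splicing removes introns from a transcript through small nuclear ribonucleoproteins (snRNPs), in which proteins of the Sm ring and of the U1, U2, U4, U5 and U6 particles are built around short RNAs. SR proteins mostly bind exons and recruit the spliceosome, whereas hnRNPs coat the transcript and often favour skipping. In T cells the best known target is Ptprc, which encodes the phosphatase CD45 and whose variable exons are skipped as naive cells become activated.

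The 58 genes comprised 11 SR proteins, 20 hnRNPs, 7 proteins of the Sm core, 3 of the U1 snRNP, 11 of the U2 snRNP, 3 of the U5 and tri-snRNP, 2 of the U11/U12 snRNP of the minor spliceosome, and 1 other. Together they gave 37234 molecules, and 54 of 58 were detected in all 21 samples. The 4 others were Srsf12 (detected in 5 samples), Hnrnpll (18), Hnrnph2 (20) and Snrnp25 (20). Mean normalized counts, which are not divided by gene length, were above 10 for 46 of 58 genes (79.3%) against 2727 of all 12994 (21.0%). Their summed share of each library was 9938 ± 503 per 1000000 molecules in LT4 EE (SD, n = 6), 9599 ± 294 in LT4 SE (n = 5), 9710.3 ± 309 in LT8 EE (n = 6) and 9766 ± 543 in LT8 SE (n = 4). By sample the share ran from 9058 to 10411 per 1000000 in LT4 EE and from 9111 to 10435 in LT8 SE, so the 4 groups overlapped.

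**Figure D1:**
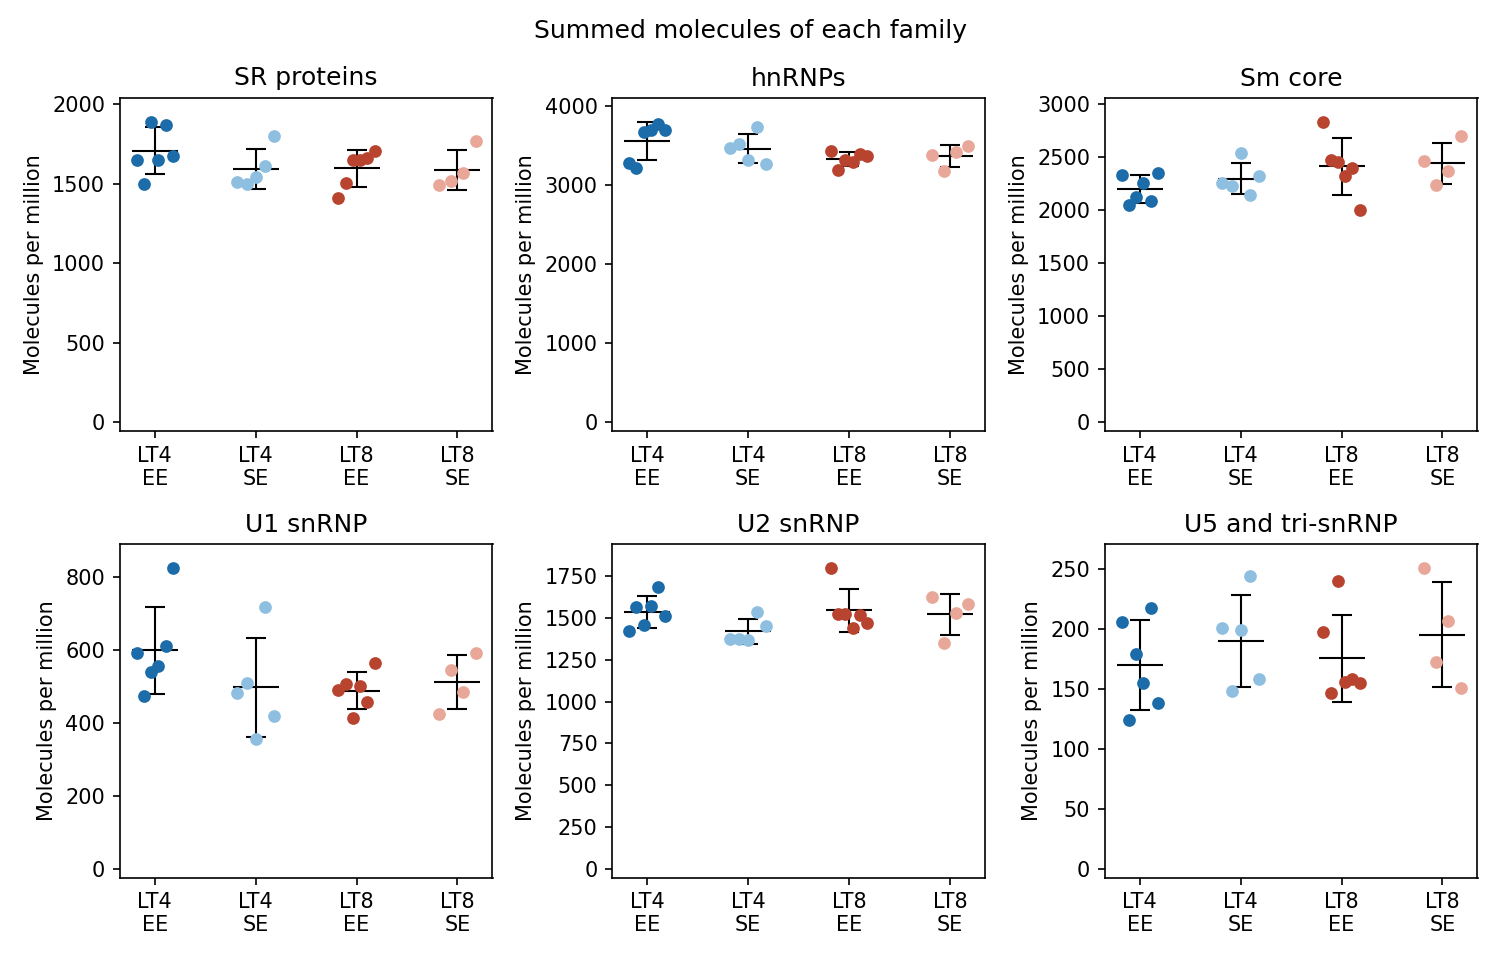
Molecules per 1000000 molecules of each library, summed over the genes of each of 6 families (vertical axes), in every sample of the 4 groups (points), with the group mean and SD (bars). Each family's groups overlap, with hnRNPs between 3171 and 3773 per 1000000 in the 21 samples.

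Enriched and standard housing were compared within each population with limma, over all genes whose normalized counts averaged more than 2. In LT4 cells 0 of 57 genes tested had a Benjamini-Hochberg adjusted p under 0.05 with limma, edgeR or DESeq2, against 1 of all 7939 genes (0.0126%) with limma. An unadjusted p under 0.05 was found for 2 of the 57 with limma and with edgeR and 1 with DESeq2. Over all 7939 genes it was 462 (5.82%) with limma, 413 with edgeR and 308 with DESeq2. In LT8 cells 0 of 56 passed with limma, edgeR or DESeq2, against 0 of 7840 (0%) with limma. An unadjusted p under 0.05 was found for 1 of 56 with each tool. Over all 7840 genes it was 413 (5.27%) with limma, 379 with edgeR and 237 with DESeq2. The difference between those housing differences, the interaction, was called for 0 of 57 genes with the 3 tools and for 0 of 7938 (0%). It had an unadjusted p under 0.05 for 1 of 57 with each tool. Over all 7938 genes that was 393 (4.95%) with limma, 367 with edgeR and 299 with DESeq2. Between LT4 and LT8, 1 of 57 genes had an adjusted p under 0.05 with limma, Hnrnpll, whose mean exceeded the limit of 2 only through LT4 and whose adjusted p was 0.0944 when samples were paired by mouse as a replicate block. That is 1.75% of the splicing genes, beside 349 of 7938 genes (4.4%), with 185 (2.33%) above and 164 (2.07%) below their LT8 level. An unadjusted p under 0.05 was reached by 7 of the 57, 1 higher and 6 lower in LT4, against 1176 of 7938 (14.8%). edgeR and DESeq2 each called 0 of the 57, with 7 at an unadjusted p under 0.05. Over all 7938 genes edgeR called 365 and DESeq2 324, with 1153 and 1060 at an unadjusted p under 0.05.

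The median log2 difference of the splicing genes between EE and SE was 0.092 in LT4 cells, 0.028 to 0.11 under the alternatives, and 37 of 57 genes were higher in EE. In LT8 cells the median was −0.041, −0.063 to −0.0030 under the alternatives, and 34 of 56 were lower in EE. Between the populations it was 0.021, −0.046 to 0.037 under the alternatives, with the other sign in 17 of 31 of them. Without the erythroid-high LT8 samples it was −0.013, with 27 of 57 genes higher in LT4 instead of 31. Medians over all genes took either sign over the alternatives, at 0.0012 in LT4, −0.013 to 0.022 under the alternatives, at −0.0078 in LT8, −0.019 to 0.015 under the alternatives, and at −0.0073 between populations, −0.015 to 0.0092 under the alternatives. The precision was such that the 95% interval of a difference reached less than 1 log2 unit to either side for 57 of 57 genes in LT4, 55 of 56 in LT8 and 57 of 57 between populations, with median reaches of 0.51, 0.49 and 0.36. For the interaction it did so for 45 of 57, with a median reach of 0.72. In sorted bulk samples, fewer cells of a type and less RNA per cell cannot be told apart.

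**Figure D2:**
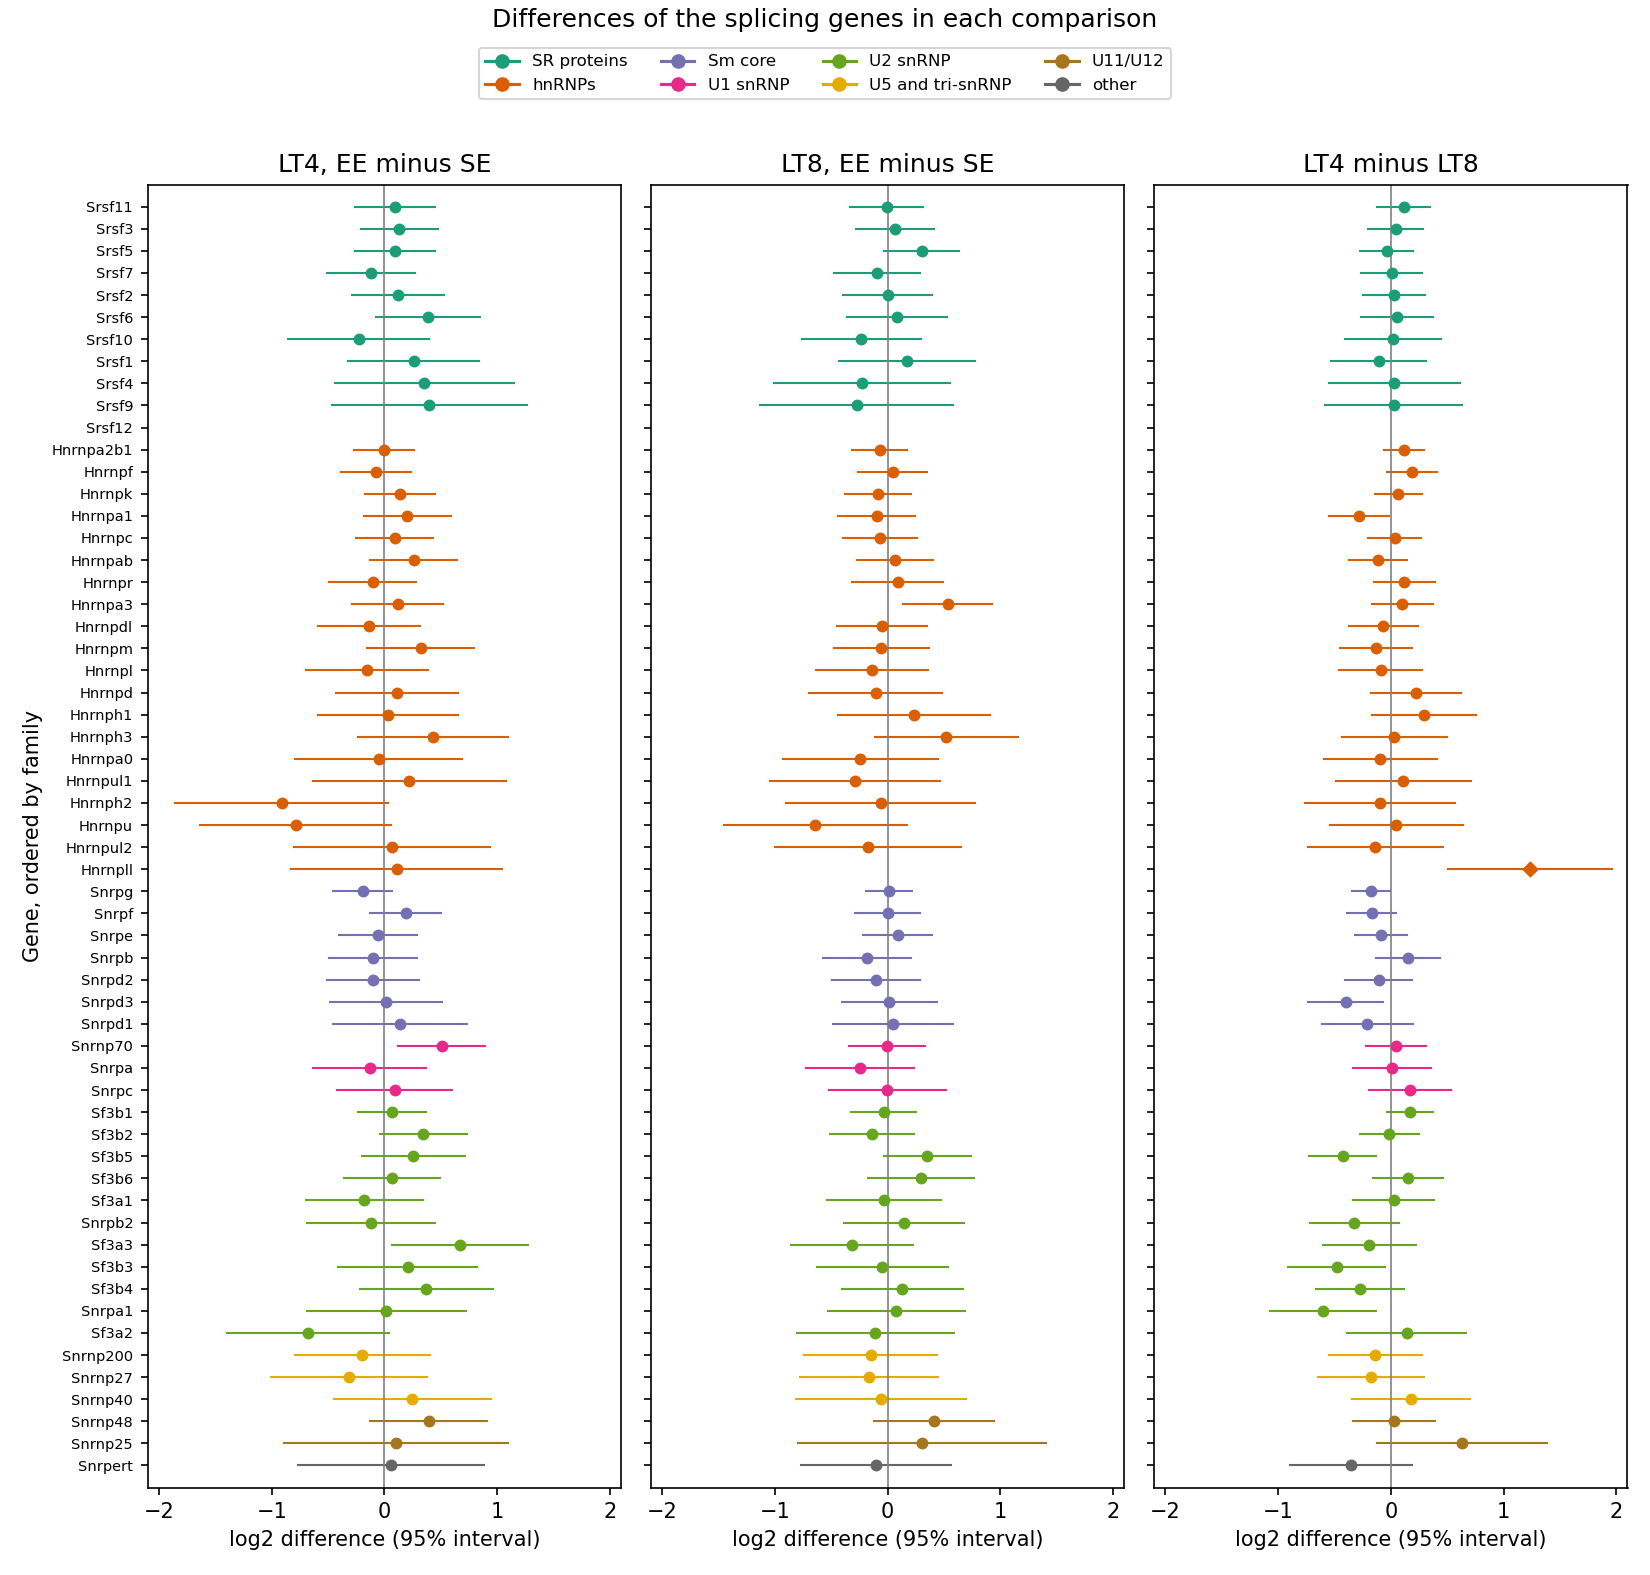
Log2 difference (horizontal axes, points) with its 95% interval (lines) for each gene tested, ordered by family, for EE minus SE in LT4, EE minus SE in LT8, and LT4 minus LT8, where a diamond marks an adjusted p under 0.05. Only Hnrnpll, at 1.24 between LT4 and LT8, carries a diamond, although it was tested only through its LT4 level and had an adjusted p of 0.0944 with mouse as a replicate block, and the other genes of that comparison lie between −0.60 and 0.63.

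Among the hnRNPs, Hnrnpll had higher values in LT4 than in LT8 cells. The gene (chr17:80029487-80062334, minus strand, GRCm38) encodes hnRNP L-like, an RNA-binding protein that promotes skipping of the variable exons of Ptprc in activated and memory T cells. Its normalized counts ran from 1.83 to 7.31 with a median of 3.22 in the 11 LT4 samples and from 0 to 2.88 with a median of 0.893 in the 10 LT8 samples. All 11 LT4 samples lay above the LT8 median, 6 of them above every LT8 sample, and 7 of 10 LT8 samples lay below every LT4 sample. These are small numbers: 40 molecules in LT4, 2 to 8 per sample, and 12 molecules in LT8, 0 to 3 per sample, with 3 LT8 samples at 0. The means were 3.68 ± 1.64 (SD, n = 11) and 1.12 ± 1.09 (SD, n = 10), a 2.35-fold difference after adding 1 (log2 difference 1.24, 95% interval 0.51 to 1.96, standard error 0.36, adjusted p = 0.0297). In 8 of the 9 mice that gave both samples LT4 was the higher, with a median difference of 2.77 normalized counts. Its mean over all samples, 2.46, passed the limit of 2 only through the LT4 samples, so it could be tested only because it was high there, and with no filter on the mean its adjusted p was 0.0485.

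Hnrnpll kept this direction in all 30 alternative analyses, with log2 differences of 0.99 to 1.73, but its adjusted p, 0.0159 to 0.585 over them, missed 0.05 in 14. With mouse as a replicate block, which pairs the samples of an animal, the difference was 1.24 (adjusted p = 0.0944). The adjusted p was 0.0635 with edgeR and 0.0671 with DESeq2, on log2 differences of 1.62 and 1.73. Within EE samples the difference was 1.32 (adjusted p = 0.167) and within SE samples 1.15 (adjusted p = 0.585). Without the erythroid-high LT8 samples, both at 0 molecules of Hnrnpll, it was 0.99 (adjusted p = 0.172). The call was also lost on leaving out LT4 EE replicate 4 (adjusted p = 0.0554) or 5 (0.0673), LT4 SE replicate 6 (0.0542), LT8 EE replicate 2 (0.0581) or 6 (0.0579), or LT8 SE replicate 1 (0.0558), 2 (0.0519) or 3 (0.113). B cell markers, of which all 10 were detected in LT4, moved in the same direction, with sums of 3.09 to 63.1 in LT4 and 0.931 to 20.6 in LT8, although the methods describe a sort for CD45+ CD11b- CD3+ cells, which would remove B cells, and the part of these markers in the difference was not tested.

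Hnrnpl, the paralogue that binds the silencer element in the variable exons of Ptprc, had normalized counts from 11.8 to 31.1 with a median of 15.0 in LT4 and from 12.1 to 23.8 with a median of 17.5 in LT8 samples. The range of LT8 lay inside that of LT4 (means 17.0 ± 6.29 (SD, n = 11) and 17.6 ± 3.46 (SD, n = 10), log2 difference −0.091 and −0.19 to −0.031 over the alternatives, adjusted p = 0.881, LT4 lower in 6 of 9 mice). Ptprc itself ran from 121 to 186 with a median of 159.5 in LT4 and from 137 to 173 with a median of 154 in LT8 samples, again overlapping (log2 difference 0.024, adjusted p = 0.936, LT4 higher in 5 of 9 mice), and this sign turned in SE samples alone (−0.0037), without LT4 SE replicate 1 (−0.0037) and without LT8 SE replicate 2 (−0.015). Gene totals do not show which exons of Ptprc were used, so CD45 exon choice was not measured. By housing, Hnrnpll in LT4 ran from 2.14 to 7.31 with a median of 2.99 in EE, and was 4.12, 1.83, 2.74, 3.8 and 4.50 in the 5 SE samples, which overlap (log2 difference 0.11, standard error 0.47, adjusted p = 0.987, with 2 of 6 EE samples above the SE median). The sign of this housing difference depends on EE replicate 5, at 7.31. In LT8 cells Hnrnpll was too low to be tested for housing, running from 0 to 2.82 with a median of 0.860 in EE and reading 0.856, 0.931, 0 and 2.88 in SE.

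**Figure D3:**
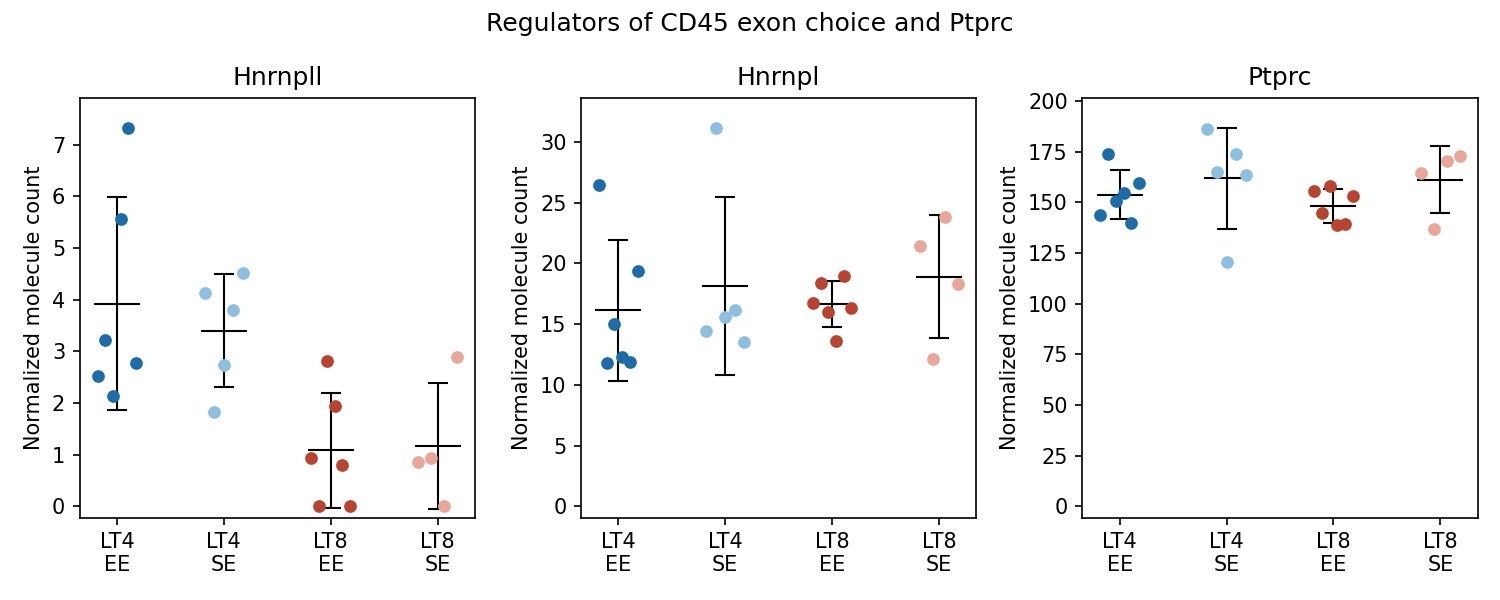
Normalized molecule counts (vertical axes) of Hnrnpll, Hnrnpl and Ptprc in every sample of the 4 groups (points), with the group mean and SD (bars, which reach below 0 for Hnrnpll in LT8). Hnrnpll lies between 1.83 and 7.31 in LT4 and between 0 and 2.88 in LT8, while Hnrnpl and Ptprc overlap.

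The housing comparison in LT8 cells gave its smallest p among the splicing genes for Hnrnpa3, an A/B-type hnRNP that binds and carries RNA. Its normalized counts ran from 27.5 to 42.3 with a median of 34.7 in the 6 EE samples and were 24.8, 20.5, 23.8 and 24.0 in the 4 SE samples. Every EE sample was above every SE sample, the only case among the 56 genes tested, beside 83 of 7840 genes (1.06%). The difference did not pass the adjusted test (log2 difference 0.53 and 0.47 to 0.60 over the alternatives, standard error 0.20, adjusted p = 0.847, 95% interval 0.14 to 0.93). In LT4 cells, Hnrnpa3 ran from 24.9 to 41.7 with a median of 31.3 in EE, and read 23.7, 32.0, 27.4, 30.4 and 32.7 in SE. Those LT4 groups overlapped (log2 difference 0.12, standard error 0.20, adjusted p = 0.960, 4 of 6 EE samples above the SE median), as did those of the other 56 genes tested in LT4, where 0 of 57 separated completely against 36 of 7939 (0.453%). The interaction for Hnrnpa3 was −0.41 (−0.49 to −0.35 over the alternatives, adjusted p = 0.994). Hnrnpa3 shares 27.1% of its 50-base words with other annotated genes, most with the pseudogene Gm5641, so reads from near-identical copies cannot be told apart there.

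Hnrnpu, a nuclear scaffold protein that links RNA to chromatin, had lower values in EE in both populations without passing either test. The EE samples of both populations came from the same mice, so these comparisons are not independent of each other. In LT4 Hnrnpu ran from 1.11 to 7.51 with a median of 4.66 in EE and was 7.21, 10.1, 8.23, 4.75 and 7.88 in SE. The groups overlapped, with 6 of 6 EE samples below the SE median (log2 difference −0.79 and −0.95 to −0.55 over the alternatives, standard error 0.42, adjusted p = 0.841). In LT8 Hnrnpu ran from 1.94 to 6.51 with a median of 4.52 in EE and was 5.14, 8.38, 6.18 and 7.69 in SE, where 6 of 6 EE samples were below the SE median and 5 of 6 below every SE sample (log2 difference −0.64 and −0.76 to −0.49 over the alternatives, standard error 0.41, adjusted p = 0.962). Hnrnpu gave 123 molecules over the 21 samples. Hnrnph2, an X-linked relative of hnRNP H that binds runs of G, ran in LT4 from 0 to 8.55 with a median of 6.38 in EE and was 7.21, 9.15, 11.0, 7.60 and 4.50 in SE. Its low EE values came from replicates 2 and 4 and the groups overlapped (log2 difference −0.91 and −1.12 to −0.47 over the alternatives, standard error 0.47, adjusted p = 0.835, 5 of 6 EE samples below the SE median), and in LT8 the log2 difference was −0.061 (adjusted p = 0.994, 3 of 6 EE samples below the SE median), with an interaction of −0.85 (−1.08 to −0.41 over the alternatives, adjusted p = 0.994).

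Hnrnpa2b1 and Hnrnpf had the highest molecule counts of the family. Hnrnpa2b1, which sorts and stabilises RNAs as well as regulating exons, had 112 ± 15.1 (SD, n = 6) normalized counts in LT4 EE, 111 ± 7.54 (SD, n = 5) in LT4 SE, 101 ± 13.9 (SD, n = 6) in LT8 EE and 105 ± 7.12 (SD, n = 4) in LT8 SE. Hnrnpf, which binds runs of G near splice sites, had 75.0 ± 13.9 (SD, n = 6), 78.1 ± 7.91 (SD, n = 5), 68.5 ± 12.0 (SD, n = 6) and 66.7 ± 15.2 (SD, n = 4) in the same order of groups. Both overlapped between housing groups in either population, and Hnrnpf differed between LT4 and LT8 by 0.18 (0.13 to 0.27 over the alternatives, adjusted p = 0.467, LT4 higher in 7 of 9 mice). Of the 20 hnRNPs, 12 of 20 were higher in EE in LT4 (median 0.077, 0.0085 to 0.10 under the alternatives, range −0.91 to 0.43) and 6 of 19 tested in LT8 (median −0.068, −0.099 to −0.010 under the alternatives, range −0.64 to 0.53), with 0 called in either by limma, edgeR or DESeq2 and 0 and 1 at an unadjusted p under 0.05 by limma. For all genes those unadjusted counts were 462 of 7939 (5.82%) and 413 of 7840 (5.27%). Between the populations 12 of 20 hnRNPs were higher in LT4 (median 0.042, −0.019 to 0.079 under the alternatives), and Hnrnpa1, a repressor of exon inclusion, named after its value was seen, was the only hnRNP besides Hnrnpll with an unadjusted p under 0.05, at −0.28 (adjusted p = 0.299, LT4 lower in 5 of 9 mice). Of all 7938 genes, 1176 (14.8%) had an unadjusted p under 0.05 there with limma.

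SR proteins gave 6184 molecules in all, from 10 for Srsf12 to 1095 for Srsf11. Srsf11, an SR protein that contacts splice site factors, ran from 44.3 to 62.2 with a median of 54.8 in LT4 EE and was 47.4, 34.8, 43.9, 66.5 and 64.2 in LT4 SE. In LT8 Srsf11 ran from 38.1 to 52.4 with a median of 51.5 in EE and was 48.8, 44.7, 47.7 and 49.98 in SE. The SE values fell within the EE range in LT8 (log2 difference −0.0093, adjusted p = 0.999, 4 of 6 EE samples above the SE median), and the SE range spanned the EE range in LT4 (0.095, adjusted p = 0.964, 5 of 6 EE samples above). Srsf3, the shortest SR protein, which also helps RNA leave the nucleus, had 52.3 ± 9.91 (SD, n = 6) in LT4 EE, 47.1 ± 2.94 (SD, n = 5) in LT4 SE, 49.1 ± 5.08 (SD, n = 6) in LT8 EE and 48.4 ± 14.6 (SD, n = 4) in LT8 SE, and differed by 0.13 and 0.065 with housing. Srsf5, an SR protein also known as SRp40, ran in LT8 from 45.1 to 61.1 with a median of 50.8 in EE and was 36.8, 50.3, 38.0 and 40.4 in SE. SE replicate 2 lay among the EE values and the other 3 SE samples below them (log2 difference 0.30 and 0.25 to 0.40 over the alternatives, standard error 0.16, adjusted p = 0.962, 6 of 6 EE samples above the SE median). Srsf12, described as an SR-like repressor of splicing, was too low to be tested, with 10 molecules in 5 samples: LT4 SE replicate 5, LT8 EE replicates 3 and 4, and LT8 SE replicates 1 and 6.

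As a family, the SR proteins with a test were higher in EE in 8 of 10 cases in LT4 (median 0.12, 0.091 to 0.17 under the alternatives, range −0.23 to 0.40) and in 4 of 10 in LT8 (median −0.0053, −0.079 to 0.039 under the alternatives, range −0.28 to 0.30), where the median turned sign in 8 of 18 alternatives. Between populations 8 of 10 were higher in LT4, within a range of −0.11 to 0.11 (median 0.028, −0.011 to 0.082 under the alternatives). Without the erythroid-high LT8 samples 6 of 10 were higher in LT4. limma, edgeR and DESeq2 called 0 of 10 SR proteins in each of these comparisons, and 0 of 10 had an unadjusted p under 0.05 with limma. The annotation lists transcripts subject to nonsense-mediated decay for 9 of the 11 SR genes, and gene totals do not separate these from coding transcripts.

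The Sm core proteins form the ring shared by most spliceosomal snRNPs. Snrpg ran from 112 to 156 with a median of 128 in LT4 EE and was 156, 118, 180.1, 155 and 151 in LT4 SE. EE values were below the SE median in 4 of 6 samples and the groups overlapped (log2 difference −0.19, standard error 0.13, adjusted p = 0.878). In LT8 Snrpg ran from 134 to 185 with a median of 162 in EE and was 165, 142, 159 and 169 in SE, with a log2 difference of 0.012 and an interaction of −0.21 (−0.29 to −0.055 over the alternatives, adjusted p = 0.994). Between populations Snrpg differed by −0.17 (95% interval −0.34 to −0.0073, adjusted p = 0.304, LT4 lower in 8 of 9 mice). Snrpf, another protein of the ring, had 71.8 ± 12.2 (SD, n = 6) in LT4 EE, 62.4 ± 7.55 (SD, n = 5) in LT4 SE, 75.6 ± 12.2 (SD, n = 6) in LT8 EE and 75.8 ± 14.5 (SD, n = 4) in LT8 SE, and 4 of 6 EE samples in LT4 were above the SE median (log2 difference 0.19, standard error 0.16, adjusted p = 0.912). Snrpd3, the Sm D3 protein, ran from 12.6 to 31.3 with a median of 23.1 in LT4 and from 20.7 to 38.0 with a median of 28.6 in LT8 samples. The populations overlapped, with 8 of 11 LT4 samples below the LT8 median and LT4 lower in 6 of 9 mice (log2 difference −0.40 and −0.47 to −0.33 over the alternatives, standard error 0.17, adjusted p = 0.202).

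Of the 7 Sm genes, 6 of 7 were lower in LT4 than in LT8 (median −0.17, −0.20 to −0.11 under the alternatives, range −0.40 to 0.15), 2 of them at an unadjusted p under 0.05, and 0 were called by limma, edgeR or DESeq2. Of all 7938 genes, 4053 were lower in LT4 with limma. An unadjusted p under 0.05 was reached by 1176 (14.8%) of them in either direction, and 349 (4.4%) were called. Their summed share was 2197 ± 130.4 per 1000000 molecules in LT4 EE and 2295 ± 149 in LT4 SE, beside 2411 ± 268 in LT8 EE and 2442 ± 193 in LT8 SE (mean ± SD), with overlapping samples. With housing, 3 of 7 were higher in EE in LT4 (median −0.057, −0.12 to 0.015 under the alternatives) and 5 of 7 in LT8 (median 0.012, −0.053 to 0.062 under the alternatives), and 0 of 7 were called or had an unadjusted p under 0.05 in either with limma. edgeR and DESeq2 also called 0 of 7.

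U1 snRNP proteins recognise the start of the intron. Snrnp70, which anchors U1 RNA and binds SR proteins, had the smallest p of the splicing genes for housing in LT4, running from 46.0 to 95.9 with a median of 56.8 in EE against 40.2, 50.3, 30.2, 69.3 and 31.5 in SE. All 6 EE samples lay above the SE median, EE replicate 6 was highest, and SE replicates 3 and 5, at 50.3 and 69.3, lay among the EE values. The difference did not pass (log2 difference 0.51 and 0.38 to 0.68 over the alternatives, standard error 0.19, adjusted p = 0.741, 95% interval 0.12 to 0.89). In LT8 Snrnp70 ran from 40.6 to 60.2 with a median of 46.4 in EE and was 42.8, 54.9, 41.5 and 58.6 in SE, fully overlapping (log2 difference −0.0056), and the interaction was 0.51 (0.38 to 0.69 over the alternatives, adjusted p = 0.994). Snrpa, which binds a stem-loop of U1 RNA, ran in LT8 from 15.0 to 23.3 with a median of 17.9 in EE and was 15.4, 20.5, 25.6 and 27.9 in SE. Of these, 5 of 6 EE samples were below the SE median and SE replicate 1 was among the lowest values (log2 difference −0.24 and −0.40 to −0.13 over the alternatives, standard error 0.24, adjusted p = 0.976). In LT4 Snrpa averaged 20.1 ± 6.89 (SD, n = 6) across EE samples and 21.6 ± 5.86 (SD, n = 5) across SE samples (log2 difference −0.13). Snrpc, which helps U1 pair with the intron start, had 21.3 ± 6.57 (SD, n = 6) in LT4 EE, 19.6 ± 6.10 (SD, n = 5) in LT4 SE, 18.1 ± 6.80 (SD, n = 6) in LT8 EE and 17.5 ± 2.84 (SD, n = 4) in LT8 SE, with log2 differences of 0.092 and −0.0030 for housing. The median of the 3 genes was 0.092 in LT4, 0.0037 to 0.26 under the alternatives, and 0.049 between populations, −0.047 to 0.22 under the alternatives. In LT8 it was −0.0056, −0.16 to 0.049 under the alternatives, above 0 in 4 of 18 of them.

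U2 snRNP proteins, including the SF3A and SF3B complexes, hold the branch point. Sf3b1, the SF3B subunit that clamps the branch point, had 78.4 ± 11.2 (SD, n = 6) in LT4 EE, 74.9 ± 11.2 (SD, n = 5) in LT4 SE, 66.9 ± 7.89 (SD, n = 6) in LT8 EE and 68.7 ± 8.88 (SD, n = 4) in LT8 SE. It overlapped between populations (log2 difference 0.17 and 0.11 to 0.22 over the alternatives, standard error 0.10, adjusted p = 0.461, LT4 higher in 7 of 9 mice). Sf3b2, its partner in SF3B, ran in LT4 from 33.4 to 49.2 with a median of 44.1 in EE and was 38.1, 27.5, 38.4, 41.8 and 23.7 in SE. SE replicates 3 and 6 were below all EE samples and the other 3 SE values lay among them (log2 difference 0.35 and 0.23 to 0.43 over the alternatives, standard error 0.19, adjusted p = 0.855, 5 of 6 EE samples above the SE median). In LT8 Sf3b2 ran from 27.2 to 52.1 with a median of 35.1 in EE and was 41.1, 36.3, 37.1 and 45.2 in SE, where 5 of 6 EE samples were below the SE median (log2 difference −0.14, standard error 0.18, adjusted p = 0.987). The size of this LT8 difference depends on EE replicate 1, the highest, and on EE replicate 4, the lowest. The interaction for Sf3b2 was 0.49 (95% interval −0.041 to 1.02, 0.37 to 0.71 over the alternatives, adjusted p = 0.994).

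Sf3a3, a subunit of SF3A, ran in LT4 from 11.0 to 26.7 with a median of 14.8 in EE and was 4.12, 10.1, 12.8, 13.3 and 14.6 in SE. EE replicates 2 and 3 were highest and SE replicate 1 lowest (log2 difference 0.67 and 0.39 to 0.79 over the alternatives, standard error 0.30, adjusted p = 0.823, 5 of 6 EE samples above the SE median). In LT8 Sf3a3 ran from 8.70 to 18.6 with a median of 13.9 in EE and was 23.1, 11.2, 19.4 and 16.3 in SE, with 5 of 6 EE samples below the SE median (log2 difference −0.32 and −0.50 to −0.17 over the alternatives, standard error 0.27, adjusted p = 0.963). Its interaction had the smallest p of the splicing genes, 0.99 (95% interval 0.16 to 1.81, 0.70 to 1.39 over the alternatives, adjusted p = 0.985), and did not pass. Sf3a2, another SF3A subunit, ran in LT4 from 2.14 to 19.2 with a median of 9.67 in EE and was 11.3, 21.0, 11.9, 10.4 and 14.6 in SE. EE replicates 2, 3 and 4 were below every SE sample while EE replicate 5 was high (log2 difference −0.68 and −0.92 to −0.38 over the alternatives, standard error 0.36, adjusted p = 0.835, 3 of 6 EE samples below the SE median). In LT8 the log2 difference of Sf3a2 was −0.11 (adjusted p = 0.992, 3 of 6 EE samples below the SE median). The sign of this LT8 difference depends on EE replicate 3, at 2.82 with 9.45 next.

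Sf3b5, the small subunit of SF3B, ran from 16.6 to 33.3 with a median of 23.9 in LT4 and from 22.3 to 44.7 with a median of 33.8 in LT8 samples. LT4 was lower in 8 of 9 mice, 11 of 11 LT4 samples lay below the LT8 median, and the populations overlapped (log2 difference −0.43 and −0.49 to −0.31 over the alternatives, standard error 0.15, adjusted p = 0.0990). Leaving out LT4 SE replicate 1, at 30.9 the highest of its group, brought the adjusted p to 0.0465 (log2 difference −0.49, range of adjusted p over the alternatives 0.0465 to 0.720), so the count called became 2. By housing in LT8, Sf3b5 ran from 28.3 to 44.7 with a median of 36.0 in EE and was 22.3, 29.8, 34.4 and 28.8 in SE (log2 difference 0.35 and 0.24 to 0.51 over the alternatives, standard error 0.19, adjusted p = 0.962, 5 of 6 EE samples above the SE median). Snrpa1, which binds U2 RNA with Snrpb2, ran from 3.21 to 16.5 with a median of 8.82 in LT4 and from 6.01 to 23.3 with a median of 14.2 in LT8 samples. The LT4 values overlapped those of LT8, with LT4 lower in 6 of 9 mice (log2 difference −0.60 and −0.78 to −0.49 over the alternatives, standard error 0.24, adjusted p = 0.171). Of the 11 U2 genes, 7 of 11 were lower in LT4 (median −0.19, −0.26 to −0.050 under the alternatives, range −0.60 to 0.17), 3 at an unadjusted p under 0.05 and 0 called by limma, edgeR or DESeq2. Of all 7938 genes, 1176 (14.8%) had an unadjusted p under 0.05 and 349 (4.4%) were called with limma. With housing, 8 of 11 U2 genes were higher in EE in LT4 (median 0.066, 0.033 to 0.19 under the alternatives) and 5 of 11 in LT8 (median −0.033, −0.075 to 0.10 under the alternatives), with 0 called by the 3 tools and 1 and 0 at an unadjusted p under 0.05 by limma. For all genes those unadjusted counts were 462 of 7939 (5.82%) and 413 of 7840 (5.27%).

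The U5 and tri-snRNP proteins had 3 genes. Snrnp200, the helicase that unwinds U4 from U6, had 10.6 ± 1.99 (SD, n = 6) in LT4 EE, 12.7 ± 4.40 (SD, n = 5) in LT4 SE, 12.4 ± 4.44 (SD, n = 6) in LT8 EE and 13.5 ± 3.41 (SD, n = 4) in LT8 SE. Snrnp27, a protein of the tri-snRNP, had 9.35 ± 3.87 (SD, n = 6), 11.8 ± 5.05 (SD, n = 5), 10.7 ± 2.60 (SD, n = 6) and 12.4 ± 4.02 (SD, n = 4) in the same order. Snrnp40, a U5 protein with WD repeats, had 9.64 ± 2.91 (SD, n = 6), 8.41 ± 4.12 (SD, n = 5), 7.94 ± 4.03 (SD, n = 6) and 8.238 ± 4.79 (SD, n = 4). Their log2 differences ranged from −0.32 to 0.25 for housing in LT4, from −0.17 to −0.059 in LT8 and from −0.18 to 0.18 between populations. limma, edgeR and DESeq2 called 0 of 3, and 0 of 3 had an unadjusted p under 0.05 with limma.

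Of the minor spliceosome proteins, which recognise a rare class of introns, Snrnp48 ran from 15.0 to 22.3 with a median of 17.3 in LT4 EE and was 12.4, 16.5, 16.5, 9.50 and 13.5 in LT4 SE. All 6 EE samples were above the SE median and the groups overlapped (log2 difference 0.39, standard error 0.26, adjusted p = 0.878). In LT8 Snrnp48 ran from 11.2 to 25.2 with a median of 17.4 in EE and was 17.99, 11.2, 10.6 and 13.5 in SE, with 5 of 6 EE samples above the SE median (log2 difference 0.41, standard error 0.26, adjusted p = 0.962). Snrnp25 ran in LT4 from 1.07 to 14.5 with a median of 3.53 in EE and was 12.4, 2.75, 2.74, 3.8 and 2.25 in SE, and in LT8 it ran from 0.791 to 4.85 with a median of 3.17 in EE and was 6.00, 0.931, 0 and 4.81 in SE. LT4 EE replicates 1 and 4 and LT4 SE replicate 1 stood at 11.3, 14.5 and 12.4, above the other 18 samples, and the population difference was 0.63 (adjusted p = 0.471, LT4 higher in 6 of 9 mice). LT8 SE replicate 3, at 0, was 1 of the erythroid-high samples. The median population difference of Snrnp48 and Snrnp25 was 0.33. Without the erythroid-high LT8 samples it was 0.18, with 1 of 2 higher in LT4. limma, edgeR and DESeq2 called 0 of these 2 genes in the 4 comparisons, and 0 had an unadjusted p under 0.05 with limma.

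The remaining gene, Snrpert, is annotated as a processed pseudogene and shares 55.6% of its 50-base words with Snrpe, the Sm E gene. It ran from 2.15 to 11.9 with a median of 6.57 in LT4 EE and was 2.06, 3.66, 9.14, 8.55 and 12.4 in LT4 SE. In LT8 Snrpert ran from 4.70 to 11.1 with a median of 8.23 in EE and was 8.56, 8.38, 11.5 and 6.73 in SE. The 4 groups overlapped (log2 difference 0.059 for housing in LT4, −0.10 in LT8, −0.35 between populations, adjusted p = 0.990, 0.992 and 0.603), with 2 of 6 EE samples and 3 of 6 EE samples above the SE medians and LT4 lower in 6 of 9 mice. Its sign turned in 6 of 17 alternatives in LT4 (−0.25 to 0.31) and in 3 of 17 in LT8 (−0.21 to 0.030). The population difference ran from −0.52 with mouse as a replicate block to −0.20 without LT4 SE replicate 1. Its 171 molecules cannot be assigned with certainty between the copies.

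Variation within groups was compared with counting noise as the ratio of the observed to the Poisson variance, where 1 is counting alone. The median ratio was 1.56 for the 57 splicing genes tested and 1.57 for all 7938, and it exceeded 2 for 11 of 57 (19.3%) against 25.1%. Among genes with a mean above 10 it exceeded 2 for 9 of 46 splicing genes (19.6%) against 927 of all 2727 (34.0%), with medians of 1.58 and 1.67. Snrpd2, an Sm protein, had the highest ratio (3.75), followed by Snrnp70 (3.73), Snrnp25 (3.21) and Hnrnpa1 (3.12), named here after their values were seen. By family the median ratio was 2.23 for the Sm core, 1.51 for SR proteins, 1.51 for hnRNPs and 1.41 for U2 proteins. Across the 21 samples the coefficient of variation ran from 10.9% for Hnrnpk, a poly(C)-binding hnRNP, to 77.1% for Hnrnpll, 91.5% for Snrnp25 and 205% for Srsf12.

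What the genes share beyond their names was read from annotation (GENCODE M21, GRCm38). Of the 58, 57 are protein coding, and they lie on 18 chromosomes. Transcripts marked for nonsense-mediated decay are listed for 25 genes, among them 10 hnRNPs, and transcripts with a retained intron for 42. An exon overlaps another gene on the same strand for 5 and on the opposite strand for 18, and on neither for 36. The median share of 50-base words found in other genes was 0.604%, with over 10% for 11 genes and none for 13. After Snrpert the highest shares were 43.6% for Sf3b4, an SF3B subunit, 36.8% for Hnrnpf, 28.2% for Hnrnpa1 and 27.1% for Hnrnpa3, whose counts may hold or lack reads of those copies. Hnrnpll shares 0.212%.

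Promoter sequences, 250 bases before to 50 after the gene start (RefSeq, GRCm38.p6), were matched for 50 of the 58 genes, and 8, Hnrnpll among them, had no entry. Motifs were searched on both strands, and for the 8 genes with several starts the first listed was used. The ETS motif CCGGAAGT was held by 9 of 50 (18%) promoters, against 9.34% of the 8097 promoters matched to genes of the table and 4% of all 27025. The 9 were Hnrnpd, Hnrnpf, Sf3a1, Sf3a3, Sf3b2, Snrnp27, Snrpe, Srsf4 and Srsf5. The GC box GGGCGG was held by 37 of 50 (74%) (65.5% of table genes and 35.9% of all), CCAAT by 22 of 50 (44%) (39.1% and 37.9%) and TATAAA by 7 of 50 (14%) (6.61% and 14.2%). CACGTG was held by 5 of 50 (10%) (10.6% and 7.24%), TGACGTCA by 2 of 50 (4%) (3.50% and 1.88%), a YY1 motif by 1 of 50 (2%) (1.91% and 0.699%) and an NRF1 motif by 1 of 50 (2%) (2.35% and 0.977%). The median GC content was 60% for the splicing genes, 61% for genes of the table and 52.7% for all promoters. A match describes the letters of the window and is not evidence of binding.

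Other genes of the splicing machinery were taken from 8 lists of 131 genes in all. For housing in LT4, limma, edgeR and DESeq2 called 0 of the 126 tested in either direction (all genes 1 of 7939, 0.0126%, with limma), with 5, 3 and 3 at an unadjusted p under 0.05, and the median log2 difference was 0.042, 0.036 with edgeR and 0.042 with DESeq2, beside 0.0012 for all genes. Of all 7939 genes, 462, 413 and 308 had an unadjusted p under 0.05 with the same tools. Factors that read the end of the intron with U2 (0 of 8 called, median 0.11, 0.24 with edgeR and 0.24 with DESeq2) had Zrsr2, which serves minor introns, at 14.5 ± 5.10 in EE and 9.95 ± 6.72 in SE (log2 difference 0.70 and 0.31 to 0.99 over the alternatives, standard error 0.35, adjusted p = 0.835, 5 of 6 EE samples above the SE median). Without LT4 SE replicate 1 the difference of Zrsr2 was 0.31. SR-related proteins and SR kinases (0 of 19, median 0.020, 0.028 with edgeR and 0.035 with DESeq2) had Srrm2, a scaffold of nuclear speckles, at 119 ± 10.9 in EE and 102 ± 21.9 in SE (log2 difference 0.24 and 0.17 to 0.34 over the alternatives, standard error 0.14, adjusted p = 0.855, 6 of 6 EE samples above the SE median). Among hnRNPs under other symbols 0 of 12 were called (median 0.042, 0.069 with edgeR and 0.075 with DESeq2). Proteins of the tri-snRNP and the Prp19 complex (0 of 21, median −0.057, −0.078 with edgeR and −0.071 with DESeq2) had Bcas2, a Prp19 complex subunit, at 13.0 ± 4.83 in EE and 18.9 ± 4.00 in SE (log2 difference −0.56 and −0.67 to −0.43 over the alternatives, standard error 0.28, adjusted p = 0.835, 6 of 6 EE samples below the SE median). LSm proteins and snRNP assembly factors (0 of 20, median 0.092, 0.14 with edgeR and 0.14 with DESeq2) had Clns1a, a chaperone of Sm proteins, at 16.2 ± 4.32 in EE and 8.18 ± 2.50 in SE (log2 difference 0.92 and 0.75 to 1.04 over the alternatives, standard error 0.30, adjusted p = 0.629, 6 of 6 EE samples above the SE median). Spliceosomal helicases and step factors (0 of 17, median −0.017, −0.044 with edgeR and −0.035 with DESeq2) had Luc7l2, a partner of U1, at 15.5 ± 7.02 in EE and 20.0 ± 4.35 in SE (log2 difference −0.45 and −0.61 to −0.24 over the alternatives, standard error 0.28, adjusted p = 0.876, 5 of 6 EE samples below the SE median). The exon junction complex (0 of 9, median 0.082, 0.053 with edgeR and 0.059 with DESeq2) had Eif4a3, its RNA-clamping helicase, at 35.6 ± 6.38 in EE and 25.9 ± 5.30 in SE (log2 difference 0.45 and 0.39 to 0.55 over the alternatives, standard error 0.20, adjusted p = 0.829, 6 of 6 EE samples above the SE median). Other RNA-binding regulators (0 of 20, median 0.044, 0.061 with edgeR and 0.067 with DESeq2) had Rbm39, a coactivator of splicing, at 129.6 ± 11.5 in EE and 108 ± 9.62 in SE (log2 difference 0.26 and 0.23 to 0.30 over the alternatives, standard error 0.13, adjusted p = 0.835, 6 of 6 EE samples above the SE median). Values are mean ± SD of normalized counts (6 EE and 5 SE samples), and each gene named is the one of its list with the smallest p.

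For housing in LT8, limma, edgeR and DESeq2 called 0 of 127 listed genes in either direction (all genes 0 of 7840, 0%, with limma), with 5, 6 and 4 at an unadjusted p under 0.05, and the median was −0.035, −0.016 with edgeR and −0.030 with DESeq2, beside −0.0078 for all genes. Puf60, which binds pyrimidine tracts, led the intron-end factors (0 of 8 called, median −0.0098, 0.14 with edgeR and 0.14 with DESeq2) with 20.4 ± 5.53 in EE and 25.4 ± 5.09 in SE (log2 difference −0.33 and −0.41 to −0.21 over the alternatives, standard error 0.23, adjusted p = 0.963, 3 of 6 EE samples below the SE median). Rnps1, which joins splicing to the exon junction complex, led the SR-related proteins and kinases (0 of 19, median 0.014, 0.036 with edgeR and 0.033 with DESeq2) with 11.2 ± 5.92 in EE and 13.8 ± 2.19 in SE (log2 difference −0.51 and −0.67 to −0.13 over the alternatives, standard error 0.36, adjusted p = 0.963, 4 of 6 EE samples below the SE median). Leaving out LT8 EE replicate 6 brought Rnps1 to −0.13. Cirbp, a cold-inducible RNA-binding protein, led the hnRNPs under other symbols (0 of 12, median 0.0043, 0.023 with edgeR and 0.020 with DESeq2) with 14.1 ± 3.97 in EE and 19.9 ± 7.61 in SE (log2 difference −0.43 and −0.73 to −0.25 over the alternatives, standard error 0.28, adjusted p = 0.963, 6 of 6 EE samples below the SE median). Prpf31, a protein of the U4/U6 particle, led the tri-snRNP and Prp19 list (0 of 20, median −0.041, −0.057 with edgeR and −0.063 with DESeq2) with 6.80 ± 2.29 in EE and 4.79 ± 2.63 in SE (log2 difference 0.49 and 0.19 to 0.73 over the alternatives, standard error 0.41, adjusted p = 0.963, 5 of 6 EE samples above the SE median). Prpf31 was at 0.19 without LT8 SE replicate 2. Gemin7, of the SMN complex that loads Sm rings, led the LSm and assembly list (0 of 21, median −0.12, −0.075 with edgeR and −0.077 with DESeq2) with 12.1 ± 3.06 in EE and 18.4 ± 6.06 in SE (log2 difference −0.54 and −0.77 to −0.40 over the alternatives, standard error 0.28, adjusted p = 0.953, 6 of 6 EE samples below the SE median). Dhx38, a helicase of the second step of splicing, led the helicases and step factors (0 of 17, median −0.057, −0.057 with edgeR and −0.060 with DESeq2) with 2.90 ± 1.30 in EE and 1.15 ± 1.77 in SE (log2 difference 1.11 and 0.80 to 1.60 over the alternatives, standard error 0.57, adjusted p = 0.952, 6 of 6 EE samples above the SE median). The mean of Dhx38 over LT8 samples, 2.20, passed the limit of 2 only through EE, so it could be tested only because it was high there, and with no filter its adjusted p was 0.953. Eif4a3 led the exon junction complex (0 of 10, median −0.097, −0.14 with edgeR and −0.15 with DESeq2) with 22.2 ± 4.01 in EE and 31.8 ± 3.55 in SE (log2 difference −0.51 and −0.58 to −0.45 over the alternatives, standard error 0.21, adjusted p = 0.920, 6 of 6 EE samples below the SE median). All 6 EE samples of Eif4a3 lay below all 4 SE samples, where the groups of 83 of 7840 genes (1.06%) are separate. Celf1, which binds GU-rich RNA, led the other RNA-binding regulators (0 of 20, median 0.044, 0.055 with edgeR and 0.053 with DESeq2) with 28.5 ± 4.54 in EE and 19.4 ± 6.70 in SE (log2 difference 0.57 and 0.41 to 0.78 over the alternatives, standard error 0.22, adjusted p = 0.898, 6 of 6 EE samples above the SE median). Of these 20 regulators, 4 had an unadjusted p under 0.05 with limma, 4 with edgeR and 3 with DESeq2. Over all genes it was 413 of 7840 (5.27%) with limma, 379 with edgeR and 237 with DESeq2.

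Between the populations 1 of 125 listed genes was called by each of limma, edgeR and DESeq2, Pcbp2, beside 349 of all 7938 genes (4.4%) with limma, and the median log2 difference was −0.0012, −0.0053 with edgeR and 0.00052 with DESeq2, beside −0.0073 for all genes. Pcbp2, a poly(C)-binding hnRNP that stabilises RNAs and regulates their translation, ran from 13.8 to 38.6 with a median of 25.9 in LT4 and from 30.1 to 52.9 with a median of 36.6 in LT8 samples. It was lower in LT4, where 9 of 11 samples lay below every LT8 sample, in 8 of 9 mice. The difference was −0.70 (95% interval −1.003 to −0.40, standard error 0.15, adjusted p = 0.000851), 1.63-fold, and −0.69 with mouse as a replicate block (adjusted p = 0.00441). It was lost in EE samples alone (−0.56, adjusted p = 0.128), the highest adjusted p among its alternatives, whose lowest was 0.000315. Without the erythroid-high LT8 samples the difference of Pcbp2 was −0.73 (adjusted p = 0.00171). Of the 12 hnRNPs under other symbols, 0 were called higher and 1 lower (median 0.12, 0.084 with edgeR and 0.092 with DESeq2). For the interaction limma, edgeR and DESeq2 called 0 of 125 listed genes, with 7, 5 and 4 at an unadjusted p under 0.05, and the median was 0.083, 0.053 with edgeR and 0.045 with DESeq2, beside 0.0049 for all genes. Of all 7938 genes, 393, 367 and 299 had an unadjusted p under 0.05 for the interaction with the same tools.

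limma called 0 genes in either direction in the other 7 lists, as did edgeR and DESeq2. Of all 7938 genes, 1176 (14.8%) had an unadjusted p under 0.05 between the populations with limma. Factors reading the intron end (0 of 8 called, 0 at an unadjusted p under 0.05 by limma, median −0.038, 0.012 with edgeR and 0.018 with DESeq2) had U2af2, which binds the pyrimidine tract, at 7.69 ± 3.40 in LT4 and 9.58 ± 4.60 in LT8 (log2 difference −0.27 and −0.38 to −0.17 over the alternatives, standard error 0.27, adjusted p = 0.713, LT4 lower in 6 of 9 mice). SR-related proteins and kinases (0 of 19, 1 unadjusted, median −0.020, −0.025 with edgeR and −0.017 with DESeq2) had Srpk1, a kinase of SR proteins, at 55.5 ± 12.4 in LT4 and 42.9 ± 8.59 in LT8 (log2 difference 0.35 and 0.27 to 0.45 over the alternatives, standard error 0.13, adjusted p = 0.131, LT4 higher in 8 of 9 mice). Srpk1 passed on leaving out LT4 SE replicate 4 (0.45, adjusted p = 0.0223, range over the alternatives 0.0223 to 0.758). The tri-snRNP and Prp19 list (0 of 20, 0 unadjusted, median 0.049, 0.064 with edgeR and 0.071 with DESeq2) had Crnkl1, which joins the catalytic spliceosome, at 5.11 ± 2.73 in LT4 and 7.37 ± 2.50 in LT8 (log2 difference −0.63 and −1.03 to −0.22 over the alternatives, standard error 0.32, adjusted p = 0.342, LT4 lower in 5 of 9 mice). Crnkl1 differed by −0.22 in EE samples alone and −1.03 in SE samples alone. The LSm and assembly list (0 of 20, 4 unadjusted, median −0.14, −0.10 with edgeR and −0.095 with DESeq2) had Lsm11, of the U7 snRNP that trims histone RNA, at 3.17 ± 2.04 in LT4 and 5.43 ± 1.65 in LT8 (log2 difference −0.71 and −0.87 to −0.54 over the alternatives, standard error 0.32, adjusted p = 0.257, LT4 lower in 8 of 9 mice). Helicases and step factors (0 of 17, 0 unadjusted, median 0.036, 0.056 with edgeR and 0.063 with DESeq2) had Cdc40, a factor of the second step, at 12.4 ± 4.266 in LT4 and 9.34 ± 4.37 in LT8 (log2 difference 0.47 and 0.25 to 0.68 over the alternatives, standard error 0.24, adjusted p = 0.348, LT4 higher in 7 of 9 mice). The exon junction list (0 of 9, 0 unadjusted, median −0.14, −0.065 with edgeR and −0.060 with DESeq2) had Upf3b, which links the complex to RNA decay, at 10.2 ± 4.45 in LT4 and 6.82 ± 2.85 in LT8 (log2 difference 0.47 and 0.35 to 0.60 over the alternatives, standard error 0.27, adjusted p = 0.423, LT4 higher in 8 of 9 mice). The other regulators (0 of 20, 1 unadjusted, median 0.0044, −0.0051 with edgeR and 0.0014 with DESeq2) had Zranb2, a zinc finger protein that binds intron starts, at 14.5 ± 2.81 in LT4 and 19.8 ± 5.39 in LT8 (log2 difference −0.47 and −0.84 to −0.10 over the alternatives, standard error 0.18, adjusted p = 0.140, LT4 lower in 6 of 9 mice). Zranb2 differed by −0.10 in EE samples alone and −0.84 in SE samples alone, and in LT8 all 6 EE samples (9.66 to 22.3 with a median of 16.3) lay below all 4 SE samples (24.0 to 26.1 with a median of 24.9), where the groups of 83 of 7840 genes (1.06%) are separate (housing difference −0.61, adjusted p = 0.898, interaction 0.74, adjusted p = 0.994).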

How the data were processed

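Sorted spleen T cells (11 LT4 and 10 LT8 samples) were sequenced with molecular tags by the authors, who aligned reads to mm10 with STAR 2.4.0a and divided molecule counts by DESeq2 size factors, and the deposited values are this normalized signal for 12994 genes. Each value divided by the smallest positive value of its sample was whole within 0.01 for 100% of values, which gave molecule counts and depth. The members and lists were chosen with earlier results of these data known. Genes with a mean above 2 over the samples compared were tested with limma 3.58.1 (trend, not robust, R 4.3.3) on log2(value + 1), on 6 EE and 5 SE samples in LT4, 6 and 4 in LT8, or all 21, and p-values were adjusted over all genes tested by the Benjamini-Hochberg method. Code was tested on simulated data. Genes named are the 2 with the highest mean in each family, all of families with 3 or fewer, every gene past an adjusted p of 0.05, the 3 higher and 3 lower with the smallest p in each comparison, Hnrnpl, Hnrnpll and Ptprc, and from each list those called or else the 1 with the smallest p. Other names were chosen after their values were seen. Alternatives were a pseudocount of 0.5, no filter or a mean above 10, samples rescaled to the same total, edgeR 4.0.16 and DESeq2 1.42.0 on molecule counts, the mouse as a replicate block for LT4 against LT8 and the interaction, where mice with 1 sample add nothing, each environment alone, all 21 samples in 1 fit, leaving out each sample, and, added after seeing the data, leaving out the erythroid-high LT8 samples. LT4 and LT8 samples of a mouse pair by design, and over 9 such pairs the correlation of residuals across genes was −0.0149 to 0.0354, beside −0.0361 to 0.0631 for 18 pairs of different mice. All 46 pairs of samples within groups differed beyond counting noise, so none is a copy of another. Marker lists for B, myeloid, NK, erythroid and platelet cells were summed per sample. Myeloid sums ran from 14.1 to 64.1 (Cst3 highest), NK sums from 0 to 9.71 (Eomes highest) and platelet sums from 0 to 4.291. EE and SE animals carrying the same number are not the same mouse, so the ranges given for housing hold no block, and the label giving a number of cells was not used. Summaries and figures used Python 3.11.15, pandas 2.3.3, NumPy 2.4.6, SciPy 1.17.1 and Matplotlib 3.10.9.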

Additional observations from a re-analysis of the deposited data

Results flagged for a closer look

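In 10 of 232 gene and group combinations of the splicing genes (4.31%), and in 17 of 284 with family shares and marker sums, the highest or lowest sample stood far from the rest of its group by Dixon's test, which chance alone does in about 1 in 20 groups. Srsf3 was lowest in LT4 SE replicate 4, at 42.1 normalized counts with 47.4 next. Srsf12 was at 0.950 in LT4 SE replicate 5 and 0 in the rest of the group. Snrnp25 was at 12.4 in LT4 SE replicate 1, with 3.8 next. Hnrnpl reached 31.1 in LT4 SE replicate 3, with 16.1 next. Hnrnpul2, a relative of Hnrnpu, reached 11.8 in LT4 EE replicate 2, with 5.53 next. Sf3b4 reached 19.5 in LT8 EE replicate 1, with 14.6 next. Sf3a2 was lowest in LT8 EE replicate 3, at 2.82 with 9.45 next. Hnrnpc, which packages nascent transcripts, reached 68.6 in that sample, with 50.6 next. Snrnp40 reached 15.4 in LT8 SE replicate 1, with 6.18 next. Hnrnpul1 reached 10.6 in LT8 SE replicate 3, with 6.73 next. The summed share of U2 proteins was 1799 per 1000000 molecules in LT8 EE replicate 1, with 1525 next. The share of all 58 genes was 10114 per 1000000 in LT4 SE replicate 5, with 9565 next. Erythroid marker sums were 581 in LT8 EE replicate 6, with 3.88 next, and 1033 in LT8 SE replicate 3, with 8.65 next. Platelet marker sums were 4.291 in LT4 EE replicate 2, 3.72 in LT8 EE replicate 1 and 1.92 in LT8 SE replicate 6, with 0, 0.940 and 0 next in those groups.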

How the results depend on the processing

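The count of splicing genes called between LT4 and LT8, 1 as reported, was 0 with a mean above 10, with edgeR, with DESeq2, with the mouse as a replicate block, in EE samples alone, in SE samples alone and without the erythroid-high LT8 samples, and it ran from 0 to 2 on leaving out each sample in turn. With a mean above 10 Hnrnpll is not tested, and the single-environment and left-out analyses hold fewer samples. For the other losses the cause was not tested. The counts for housing in LT4, housing in LT8 and the interaction were 0 in each of their 19, 19 and 29 alternatives. For housing the replicate block joined different mice that share only a number, and the count was 0 with it in LT4 and in LT8. Deviations of such samples correlated at −0.00650 to 0.0295 in LT4 and 0.000579 to 0.00789 in LT8, and 0 of 10 and 1 of 8 samples correlated best with their own number. Of 1190 alternative values of 50 named results, 1170 kept direction and side of the threshold, 15 lost a call (14 of Hnrnpll and 1 of Pcbp2), 2 gained one (Sf3b5 and Srpk1) and 3 turned sign. The 3 were Ptprc between LT4 and LT8, at −0.0037 in SE samples alone, and −0.0037 without LT4 SE replicate 1 and −0.0145 without LT8 SE replicate 2, within a leave-one-out range of −0.015 to 0.074, where the cause was not tested. The 50 do not include every printed difference, such as that of Sf3a2 with housing in LT8. Depth limits the genes with few molecules, such as Srsf12 with 10 and Hnrnpll with 52, and the 95% intervals of housing differences reach a median of 0.51 log2 units in LT4 and 0.49 in LT8 to either side.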

Other observations

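Eif4a3, chosen after its values were seen, had housing differences of opposite sign in the populations. It differed by 0.45 in LT4 and −0.51 in LT8, with an interaction of 0.96 (95% interval 0.39 to 1.53, adjusted p = 0.924 with limma). The interaction did not pass the test.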
